A study of Homo sapiens with 2 samples.

Results

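The genes described here sense double-stranded RNA or act directly on that signal: DDX60, DDX60L, RIGI, IFIH1, DHX58, MAVS, ZC3HAV1, EIF2AK2, ADAR and TLR3. They were chosen by name from the platform annotation, and all 10 were found, 10 of the 19775 genes that the array names, through 24 probe sets. OECM1 is an established cell line from a cancer of the head and neck. One culture was stably transfected with pmCherry-let7i, a vector for the microRNA let-7i, and the control culture with the pmR-mCherry empty vector, so that both carried an mCherry plasmid. Total RNA of each culture was measured on 1 array. The name cytosolic sensor fits only some of the genes: TLR3 lies in endosomes, MAVS is an adaptor on mitochondria, and ADAR and ZC3HAV1 edit RNA or direct its decay. Whether the transfected cells were 1 clone or a pool is not given in the sources used here.

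Cells read double-stranded RNA as a sign of viral infection. RIGI and IFIH1 (MDA5) are helicases that bind it in the cytosol and then activate MAVS, which relays the signal to the transcription factors IRF3 and NF-kB and so to interferon genes. TLR3 does the same from endosomes through another adaptor, EIF2AK2 (PKR) halts translation, and ADAR edits the cell's own double strands, which keeps them from being sensed. Many of these genes are themselves induced by interferon, through response elements in their promoters.

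The mature let-7i strand made from the 5′ arm is shown because the vector is one for let-7i, though the strand itself was not measured. It lies at chr12:62603691-62603712 of GRCh38.p14 on the plus strand, as given by RefSeq, and the capitals mark its seed, bases 2 to 8.
let-7i-5p: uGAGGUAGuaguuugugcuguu
No probe set carried the symbol of its gene, so the array gave no value for let-7i that could check the label.

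The promoters of 9 of the 10 genes were in the RefSeq table (GRCh38.p14), as windows of 250 bases before to 50 after a transcription start. DHX58 was not matched. The core of the interferon-stimulated response element was searched as GAAA and GAAA with 2 bases of any kind between them, on both strands. It was found for 5 of the 9 genes (DDX60, DDX60L, IFIH1, EIF2AK2 and TLR3), and in 4.38% of the 27305 genes with a window of this length. The stretches below carry a match, in capitals, and are written 5′ to 3′ on the strand of the gene. They are shown for every gene with a match to the core. Of these genes DDX60, DDX60L, EIF2AK2 and TLR3 had a lower signal with let-7i in every measured probe set, and IFIH1 had probe sets in both directions. Among the genes with no match to the core, ADAR and ZC3HAV1 were also lower in every measured probe set. RIGI (2 lower and 1 higher) and MAVS (1 lower and 3 higher) were not. A link between the motif and the direction was not tested. Over all genes 47.0% were lower in their brightest probe set, and the share lower in every measured probe set was not computed.
DDX60: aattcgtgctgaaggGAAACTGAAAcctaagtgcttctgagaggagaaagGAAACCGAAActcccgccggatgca
DDX60L: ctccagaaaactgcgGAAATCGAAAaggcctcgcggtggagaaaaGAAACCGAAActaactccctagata
IFIH1: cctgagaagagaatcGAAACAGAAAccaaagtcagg
EIF2AK2: ggcggagtccaagggGAAAACGAAA
TLR3: tttttcaagctttacTTTCACTTTC
The DDX60 stretch is chr4:168318781-168318855 and that of DDX60L chr4:168480518-168480587, both on the minus strand. In the RefSeq order these genes are neighbours with no protein-coding gene between them. Both promoters hold 2 matches, and the nearer one has the same letters, at bases -53 to -44 for DDX60 and -50 to -41 for DDX60L, counted from the last base before the start as -1. The IFIH1 stretch is chr2:162318685-162318720 (minus strand), and a pair of overlapping matches lies further upstream, between bases -159 and -144. The matches of EIF2AK2 (chr2:37156977-37157001, minus strand) and TLR3 (chr4:186069137-186069161, plus strand, read there from the other strand) reach across the start.

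RIGI had no match to this core. A spacing of 1 base, GAAANGAAA, was searched after the promoters had been seen and was found for RIGI, DDX60 and DDX60L. In the latter 2 genes it overlaps the core, and 3.87% of all genes hold it. In RIGI it lies at bases -203 to -195, in the following stretch of chr9:32526376-32526414 (minus strand).
RIGI: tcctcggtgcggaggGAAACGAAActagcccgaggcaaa
The gamma-activated site TTCNNNGAA, which reads the same on both strands, was found for DDX60, TLR3 and ZC3HAV1 and in 9.38% of all genes. MAVS and ADAR had no match to any of the 3 motifs. A match is a description of the letters and not evidence of binding.

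The RNA sensors were mostly lower with let-7i. Signals are MAS5 intensities on a linear scale, and log2 ratios are let-7i vector over empty vector, centred on the median of all measured probe sets. A probe set was measured if its signal reached the floor, the median signal of its array (88.0 in the control, 79.5 with let-7i). Of the 24 probe sets 21 were measured on both arrays and 3 on neither. With let-7i, 16 of the 21 were lower and 5 higher. A decrease of at least 2-fold was seen in 3 of them and an increase of that size in none. Over all 23919 named probe sets that reached the floor on either array, 49.8% were lower, 1.25% were at least 2-fold lower and 1.09% at least 2-fold higher. By gene, each shown by its brightest probe set, 8 of 9 measured genes were lower, against 47.0% of 12284 genes, and 2 of 9 at least 2-fold lower, against 1.26%. No gene of the 9 was at least 2-fold higher, against 1.16%. The members were chosen with earlier results of these data known, so these shares are no independent evidence of the direction. The median log2 ratio of the 9 genes was -0.39 (-0.35 without DDX60), and that of all genes 0.02. With 1 array per group there is no spread between cultures, no test and no p-value, and in RNA of a whole culture fewer expressing cells and less RNA per cell cannot be told apart.

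**Figure D1:**
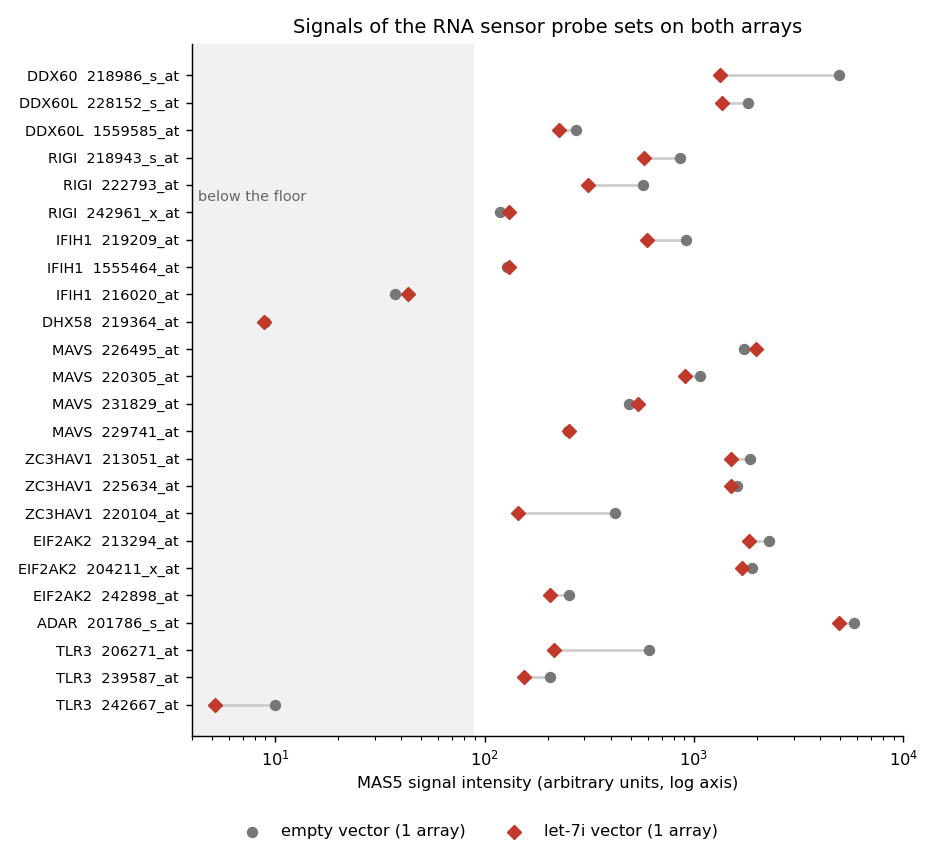
MAS5 signal (log axis, arbitrary units) of each of the 24 probe sets with the empty vector (grey circles) and let-7i (red diamonds), 1 array each. The grey area lies below the empty vector floor of 88.0. The widest gaps among measured probe sets are those of DDX60, 1 of ZC3HAV1 and 1 of TLR3, and DHX58 lies far below the floor.

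As a yardstick for probe noise, the 2 brightest measured probe sets of each of 5807 genes were compared. The SD of 1 probe set was 0.25 on the log2 scale, from 0.34 in the dimmest 1452 of these genes to 0.15 in the brightest 1452. This yardstick says nothing of how cultures vary.

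DDX60, a helicase reported to assist RIGI, had the largest difference of these genes. Its only probe set gave 4925 in the control and 1336 with let-7i, which leaves 27.1% of the control signal. The log2 ratio was -1.86, or 3.63-fold lower, 12.0 times the probe noise at this brightness. Ordered from the lowest ratio, DDX60 was at place 5 of the 11140 genes measured on both arrays. Just below it stood TINCR (log2 ratio of -1.99) and INHBB (-1.98), and just above it IFI27 (-1.85), an interferon-induced gene, and CLIC3 (-1.82). By its ID the probe set can match more than 1 transcript, and no second probe set checks it.

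DDX60L is the closest relative of DDX60. Its brighter probe set gave signals of 1814 (empty vector) and 1361 (let-7i, the order used from here on), a log2 ratio of -0.39. That probe set is open to other transcripts by its ID. The dimmer one had 272 and 227, a log2 ratio of -0.24. Both are lower by under 1.5-fold and by less than 2 times their probe noise. The neighbouring genes thus had unequal ratios, 3.63-fold lower for DDX60 and 1.31-fold lower for DDX60L, and this difference was not tested between cultures.

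RIGI, the sensor of short double strands with a triphosphate end, had 3 measured probe sets. The brightest gave 858 and 574, a log2 ratio of -0.56. The next gave 573 and 312, a log2 ratio of -0.86 or 1.81-fold lower. The dimmest had 118 and 131, a log2 ratio of 0.17 within its probe noise of 0.34. The 2 brighter probe sets were thus lower by 2.19 and 3.36 times the probe noise, and the dim one was not. By their IDs both the brightest and the dimmest can match more than 1 transcript. The ID of the middle one carries no such mark.

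IFIH1, which binds long double strands, gave 920 and 593 in its brightest probe set, for a log2 ratio of -0.61 or 1.53-fold lower. A dimmer probe set had 128 and 131, a log2 ratio of 0.05. The remaining one lay below the floor on both arrays (37.2 and 43.2). The lower signal of IFIH1 therefore rests on 1 probe set, and the mean of the measured ones gave -0.28.

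DHX58 (LGP2), the family member that lacks the signalling domain and modulates the other sensors, had signals of 8.93 and 8.89 in its only probe set. Both lie below the floor, and no ratio is given.

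MAVS, the adaptor on which RIGI and IFIH1 converge, showed no common direction. Its brightest probe set gave 1734 and 1967, a log2 ratio of 0.20. The second had 1064 and 903, a log2 ratio of -0.21. The other 2 had log2 ratios of 0.15 and 0.03. All 4 lie within 1.32 times their probe noise.

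TLR3, the endosomal receptor, had the second largest difference by gene. Its brightest probe set gave 613 and 214, a log2 ratio of -1.49 or 2.82-fold lower. A second probe set had 205 and 154, a log2 ratio of -0.39, and the third lay below the floor (9.98 and 5.15). Both measured probe sets were lower with let-7i but by unequal amounts. They lie 1.10 apart on the log2 scale, and 1.51% of the 3118 genes with 2 measured probe sets had a gap as wide. The mean of both was -0.94, short of 2-fold.

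ZC3HAV1 (ZAP) binds foreign RNA rich in CG pairs and directs its decay. Its 2 brighter probe sets differed little, with signals of 1858 and 1498 (log2 ratio of -0.29) and of 1596 and 1508 (-0.06). The third and dimmest had 421 and 144, a log2 ratio of -1.52 or 2.88-fold lower, 4.53 times the probe noise. The range of 1.46 over its probe sets was as wide in 0.56% of the 1608 genes with 3 measured probe sets. The gene is known to give rise to a long and a short protein, but the files do not say which transcripts each probe set reads. With the floor raised to the 65th percentile the third probe set was below it with let-7i and its log2 ratio became a bound of -0.98.

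EIF2AK2, the kinase that halts translation, was slightly lower in all 3 probe sets. The brightest gave 2283 and 1828, a log2 ratio of -0.30. The second, open to other transcripts by its ID, had 1901 and 1693, a log2 ratio of -0.15. The dimmest had 252 and 204, a log2 ratio of -0.28. Each was lower by less than 2 times its probe noise, and the 3 lie within 0.15 of each other.

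ADAR, which turns adenosine into inosine in double strands, had signals of 5816 and 4912 in its only probe set. The log2 ratio was -0.22, or 1.17-fold lower, 1.43 times the probe noise. The probe set is open to other transcripts by its ID.

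**Figure D2:**
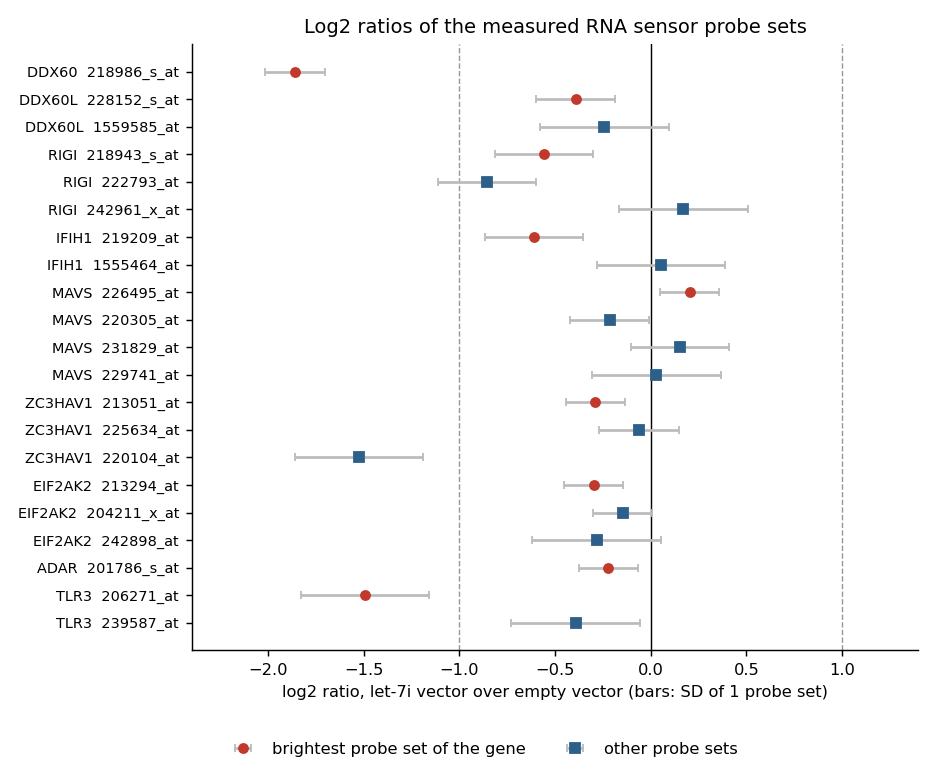
Log2 ratio (let-7i over empty vector) of the 21 measured probe sets, with bars of 1 SD of probe noise at the same brightness (not variation between cultures) and dashed lines at 2-fold. DDX60 (-1.86), 1 probe set of ZC3HAV1 (-1.52) and 1 of TLR3 (-1.49) lie beyond 2-fold, and MAVS lies on both sides of 0.

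Near the 2-fold threshold, the smallest difference inside it was that of TLR3 (-1.49) and the largest outside it that of RIGI (-0.86). At 1.5-fold, 5 of the 21 probe sets were lower and none higher, against 6.06% and 4.63% of all probe sets. The 2 that this adds are the second probe set of RIGI and the brightest of IFIH1. At 3-fold DDX60 alone was lower and none higher, against 0.171% and 0.247% of all probe sets.

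**Figure D3:**
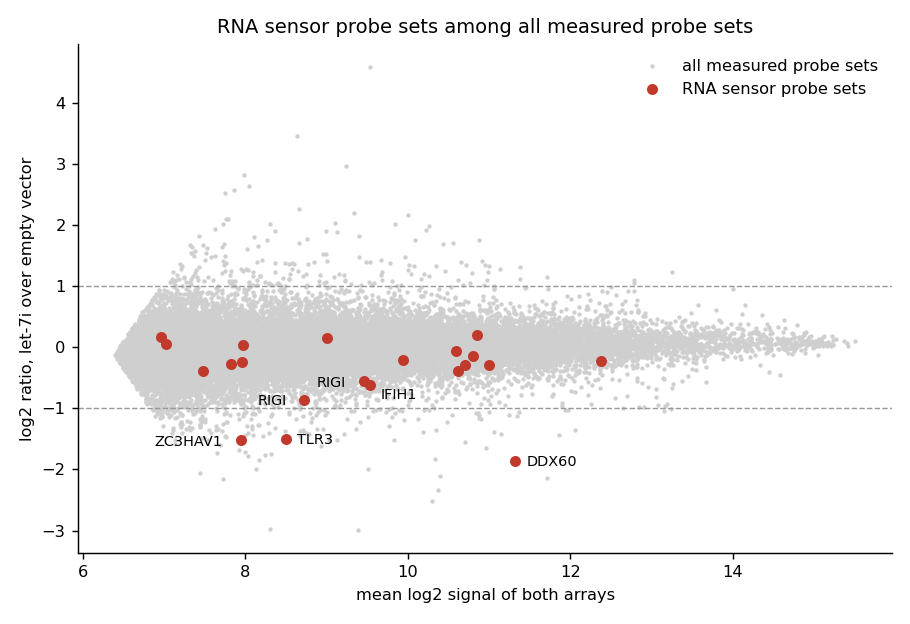
Log2 ratio against mean log2 signal for every named probe set measured on both arrays (grey) and the 21 of the RNA sensors (red), with dashed lines at 2-fold. DDX60 lies below nearly all probe sets of like signal, while TLR3 and the lowest probe set of ZC3HAV1 lie among dimmer ones, where ratios scatter more.

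The other genes of the pathway are given by counts and medians, and lists were not tested against each other. Regulators of RIGI and MAVS were measured in 19 of 21 listed genes, 6 lower and 13 higher, with none past 2-fold and a median log2 ratio of 0.07. TRIM65, a ubiquitin ligase for IFIH1, was 1.69-fold higher (651 and 1087), and the brightest probe sets of NLRX1, a mitochondrial inhibitor of MAVS signalling, and of the deubiquitinase CYLD were 1.32-fold and 1.31-fold higher. NLRX1 also had a probe set at -0.64, and the 5 of CYLD ran from -0.42 to 0.57. ATG5, an autophagy protein, was 1.18-fold higher.

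Of the 22 listed genes that carry the signal from MAVS and TLR3 to IRF3 and NF-kB, 19 were measured, 9 of them lower and 10 higher, again with none past 2-fold and a median of 0.03. The largest differences were those of TRAF3, a ubiquitin ligase downstream of MAVS (log2 ratio of 0.33), UNC93B1, which brings TLR3 to endosomes (0.32), AZI2, an adaptor for the kinase TBK1 (0.31), and CASP8 (0.29). All 4 were higher by less than 1.5-fold. AZI2 and UNC93B1 also had probe sets below 0, the lowest at -0.41 and -0.14.

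Among other proteins that bind double-stranded RNA, 17 of 22 listed genes were measured, 11 lower and 6 higher, with none past 2-fold in its brightest probe set and a median of -0.07. OAS1, an interferon-induced synthetase that activates RNase L, was 1.72-fold lower (387 and 222), and its 2 probe sets were at -0.78 and -0.63 on the log2 scale. OAS2 had a log2 ratio of -0.44 at dim signals (113 and 82.4). Its 3 probe sets ran from -0.44 to 0.00. OAS3, named after its values were seen, was at -0.07 in its brightest probe set and at 1.17, more than 2-fold higher, in the other. DICER1, the microRNA-processing nuclease, was at -0.45, and its 4 probe sets ran from -0.45 to -0.15. ZFR, a zinc finger protein, was at 0.41, and its 4 probe sets ran from -0.20 to 0.41.

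Genes induced by interferon outside the sensor list were set beside it. Of 27 that reached the floor (2 of them on 1 array only, where the ratio is a bound), 24 were lower and 3 higher, with a median log2 ratio of -0.85, while 47.0% of all genes were lower. Of these, 9 passed 2-fold downwards and none upwards, against 1.26% and 1.16% of all genes. The largest differences of the list were those of IFI27 (log2 ratio of -1.85), IFI44 (-1.55), OASL (-1.36) and RSAD2 (viperin, 798 and 311, -1.34). This list was put together with earlier results of these arrays known and is no independent evidence of the direction. It leaves out interferon-induced genes that were placed in other lists, among them IFI16 (3.96-fold higher) and OAS1 (1.72-fold lower). The counts past 2-fold therefore hold only for the list as drawn up.

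**Figure D4:**
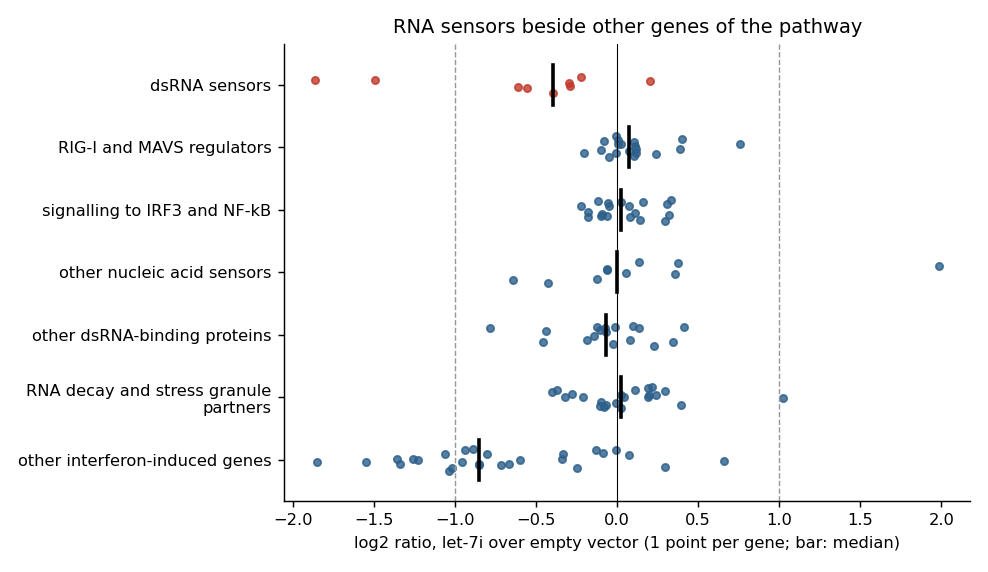
Log2 ratio (let-7i over empty vector) of each gene that reached the floor on either array, for the RNA sensors (red) and 6 other lists (blue), with black bars at the medians and dashed lines at 2-fold. The sensors have a median of -0.39, the other interferon-induced genes one of -0.85, and the remaining lists lie between -0.07 and 0.07.

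The labelled cell type was checked with markers. Of 10 squamous epithelial markers listed, 7 had a probe set that names them alone, and KRT6A, KRT17 and TP63 had none. Of the 7, 4 were measured on both arrays. The basal keratins KRT5 and KRT14 and the desmoglein DSG3 were below the floor on both. EPCAM (log2 ratio of -0.68), DSC3 (-0.47) and CDH1 (-0.39) were lower with let-7i and SFN (0.04) was not, with a median of -0.43. The summed signal of the 7 was 34236 and 28375. Of 8 leukocyte markers listed, 7 had such a probe set, and 6 were below the floor, PTPRC among them. The measured one, CD3E, gave 173 and 90.4, a log2 ratio of -0.91, and the summed signal of the list was 362 in the control and 250.03 with let-7i. Of 8 fibroblast and endothelial markers 5 were below the floor, PDGFRB and CDH5 among them, and 3 were measured on both arrays. DCN was 2.00-fold higher with let-7i. COL1A1 gave 346 and 415 (log2 ratio of 0.28), and PECAM1 gave 319 and 372 (0.24). The 3 probe sets of PECAM1 ran from -0.25 to 0.24. The summed signal of that list was 971 and 1278, and the part of these 3 marker lists in the results on the sensors was not tested.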

How the data were processed

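Biotin-labelled RNA of 2 cultures was measured on 1 array each. The deposited values are 1-colour signal intensities on a linear scale, and the submitters' processing notes name MAS5 (version and settings not given in the sources used here). Their mean without the lowest and highest 2% was 500.1 on both arrays, so a difference in total RNA per cell is not visible. Dim MAS5 values are noisy, and the number of arrays limits the precision.

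Of 54675 probe sets, 41097 had 1 gene symbol (41043 of their IDs were in RefSeq) and were used. Signals below the floor (50th percentile of the array) were set to it. Log2 ratios were centred on the median of the probe sets measured on both arrays (a shift of -0.02). A gene was shown by its brightest probe set. Probe noise was the SD, over genes, of the difference between 2 probe sets, over the square root of 2. The members and gene lists were chosen with earlier results of these data known. Named genes are every member, the up to 4 largest ratios of each list, and the 2 genes ranked on either side of the lowest member. OAS3, CGAS and STING1 were named besides, after their values were seen. Marker genes serve as checks. The procedure was tested on simulated data with the same noise at every brightness. The changes put in were all beyond 2-fold and in brighter probe sets, so smaller or dimmer changes were not covered. Versions were Matplotlib 3.10.9, statsmodels 0.14.6, pandas 2.3.3, NumPy 2.4.6 and Python 3.11.15.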

Additional observations from a re-analysis of the deposited data

How the results depend on the processing

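The alternatives were no centring, lowess centring, quantile normalization, a floor at the 25th or the 65th percentile, no floor with 16 added to each signal, averaging the measured probe sets of a gene, leaving out probe sets open to several transcripts, and thresholds of 1.5-fold and 3-fold. Centring on genes and leaving out DDX60 were added after seeing the data. The count of probe sets at least 2-fold lower (3) became 5 at 1.5-fold and 1 at 3-fold by construction, and 2 to 3 under the settings that kept the 2-fold threshold. The median log2 ratio of the genes ran from -0.43 to -0.30. DDX60 ran from -1.90 to -1.84 over the 8 settings that gave it a ratio, and has none without probe sets shared between transcripts. Nor has ADAR. Without those probe sets RIGI was at -0.86, and with averaged probe sets ZC3HAV1 was at -0.62, TLR3 at -0.94 and IFIH1 at -0.28. Each of the 8 lower genes stayed below 0 and MAVS above 0 in every setting that gave a ratio. Most settings keep the brightest probe set of a gene, so this says little of its other probe sets. Probe sets of the opposite direction kept their sign too under other scalings and floors. The dimmest of RIGI ran from 0.14 to 0.28, the second of IFIH1 from 0.03 to 0.16 and the second of MAVS from -0.24 to -0.19. Dim signal limits DHX58 and 1 probe set each of IFIH1 and TLR3, which were below the floor. With no floor they gave log2 ratios of 0.02, 0.18 and -0.27, and the median over 10 genes, DHX58 included, was -0.34. The IFIH1 probe set gave 0.26 with a floor at the 25th percentile. Raising the floor to the 65th percentile also left the second probe sets of IFIH1 and TLR3 and the dimmest of RIGI below it on both arrays. The averaged ratios of these genes thus rest in part on dim probe sets. The dimmest probe set of EIF2AK2 reached that floor on 1 array only, where its log2 ratio of -0.24 is a bound. No paired analysis was possible because each group has 1 array and the labels give no replicate numbers.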

Other observations

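Sensors of other nucleic acids did not share one direction. Of 10 listed genes that reached the floor on either array, 5 were lower and 5 higher with let-7i, with a median log2 ratio of 0.00. IFI16, an interferon-induced protein that binds DNA, gave 621 and 2426, a 3.96-fold higher level, and its 3 probe sets gave log2 ratios from 1.99 to 2.16. It was the only one of the 10 past 2-fold, against 1.16% of all genes that were at least 2-fold higher. NLRP1, an inflammasome sensor, had a log2 ratio of -0.64 in its brightest probe set (5 ran from -0.65 to -0.03), SAMHD1, a nucleotide hydrolase, of -0.42 (5 ran from -0.74 to -0.10), and LRRFIP1 of 0.38 (9 ran from -0.72 to 0.38). CGAS and STING1, named after their values were seen, each had 2 measured probe sets, which gave log2 ratios of -0.20 and -0.12 for CGAS and of -0.81 and -0.06 for STING1.

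Among partners of ZC3HAV1 and EIF2AK2 in RNA decay, stress granules and the control of translation, all 22 listed genes were measured, 10 lower and 12 higher, with a median of 0.03. PPP1R15A (GADD34), which reverses the mark that EIF2AK2 sets on its substrate, had signals of 682 and 1364, a 2.03-fold higher level, with log2 ratios of 1.02 and 1.03 in both probe sets. It was the only one of the 22 past 2-fold, where 1.16% of all genes passed it upwards and 1.26% downwards. EIF2AK3 and EIF2AK4, related kinases that respond to other stresses, had log2 ratios of -0.40 and 0.39. TIAL1, a stress granule protein, was at -0.37 in its brightest probe set, and its 3 ran from -0.37 to 0.29.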
